A study of Mus musculus with 16 samples.

Results

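The 31 genes described here encode the enzymes and carriers of glycolysis and a set of genes that respond to low oxygen, and they were measured in mouse macrophages exposed to heme-albumin or to bacterial lipopolysaccharide (LPS). They were chosen by name, 25 from glycolysis and its carriers and 6 from the hypoxia response, and each is represented by its brightest array probe. All 31 were on the array, and all were kept among the 12759 genes that were well above background on every array of at least 1 group. Each of their probes was well above background on all 16 arrays, so no member entered only through the group in which it was high.

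The macrophages were grown from murine stem cells, and the labels give no strain, genotype or age. Control cells were untreated and taken at 0 h. The remaining cells received heme-albumin (50 µM or 200 µM) or LPS (10 ng/mL), each over 8 h. Each group has 4 arrays, lettered a to d, which the submitters describe as independent biological replicates, and every array compared its sample with untreated reference RNA. Heme, the iron porphyrin of hemoglobin, was bound to albumin, and the series asks whether it triggers inflammation. No group was left untreated for 8 h and none received albumin alone, so treatment and time in culture cannot be told apart in comparisons with the control. The 3 treated groups were taken at the same hour.

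Glycolysis splits glucose into pyruvate in the cytosol, and lactate dehydrogenase turns pyruvate into lactate that leaves the cell. Macrophages that meet LPS are known to take up more glucose and to release more lactate. Hypoxia-inducible factor 1 (HIF-1) is a transcription factor whose alpha subunit, made by Hif1a, is marked for destruction by oxygen-dependent prolyl hydroxylases (the Egln genes), and it drives many glycolysis genes as well as Vegfa, Bnip3 and Ankrd37. In macrophages LPS is known to raise Hif1a mRNA through NF-kB, also where oxygen is ample.

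All 12 macrophage markers on the array, among them Adgre1, Csf1r and Itgam, were well above background on all 16 arrays. Of 10 embryonic stem cell markers, Pou5f1, Sox2 and Zfp42 were above background on no array, while 5 others, Nanog among them, were above it on all. In bulk RNA, fewer cells of a type and less RNA per cell cannot be told apart. On an array 49.9 to 59.4 percent of 39429 probes exceeded background clearly. The scans fell on 2 days, with replicates a and b on the first day and the other pair on the second, each with every group, and the sample titles give the pairs tags of a different style. A group always took one place on its slide, so place and group cannot be told apart.

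LPS moved this set of genes widely, and heme-albumin moved 3 of them. After LPS the expression of 13 members rose and that of 2 fell by at least 2-fold at an adjusted p under 0.05, the rule used for a call throughout. Of all genes tested, 30.7 percent were called in this comparison, 14.0 percent higher and 16.7 percent lower. By adjusted p alone 27 members passed, against 78.8 percent of all genes. The median log2 difference was 0.74 over the 31 members and -0.09 over all genes. At 200 µM heme-albumin Slc2a1 rose and Vegfa and Ankrd37 fell, 3 of 31 against 3.03 percent of all genes. At 50 µM Vegfa alone was called, against 0.368 percent of all genes. Each of these 3 comparisons uses the same control arrays. The treated arrays did not overlap the control arrays in 25 of the 31 members after LPS, 12 at 200 µM and 10 at 50 µM. Such overlap was not counted over all genes.

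**Figure D1:**
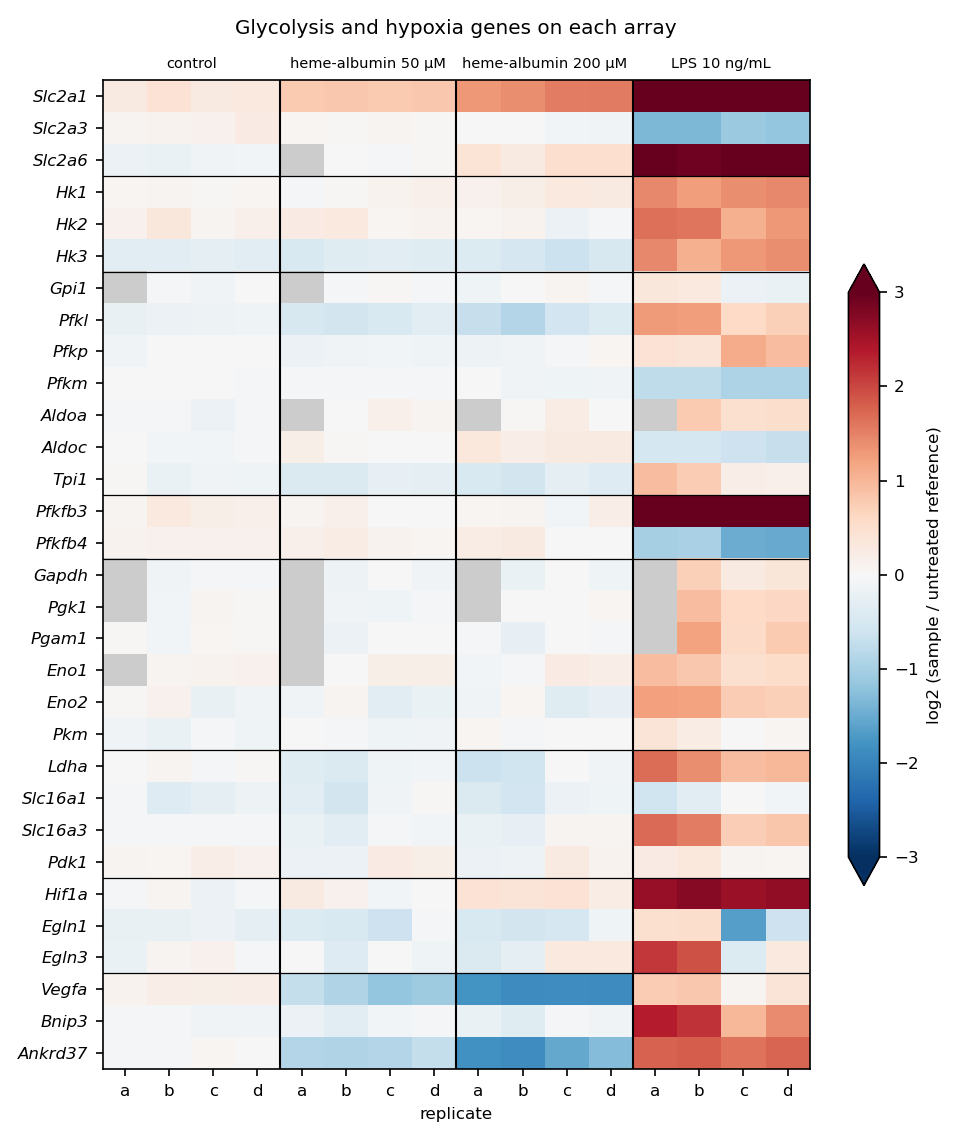
Log2 ratio of sample to untreated reference for each of the 31 members (rows, ordered by role, with lines between roles) on each of the 16 arrays (columns, 4 replicates per group). Red is higher and blue lower than the reference, colours end at 3 either way, and grey marks a spot left out as an outlier; the LPS columns hold most of the colour, and Slc2a1, Vegfa and Ankrd37 also change in the heme-albumin columns.

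The upstream sequences of 6 members are shown because these genes carried the main differences: Ankrd37, Vegfa and Slc2a1 were the members called after heme-albumin, Pfkfb3 changed most after LPS, and Bnip3 and Egln3 are 2 of the 3 members whose LPS difference changed by more than 2-fold between the scan days. HIF-1 binds a short core, and 5-letter matches to ACGTG or GCGTG on either strand are in capitals, so that a match on the other strand reads CACGT or CACGC and a CACGTG holds overlapping matches on both strands. Each stretch is the 250 bases before the outermost annotated start, from RefSeq on build GRCm38.p6, printed in the direction of transcription.
Ankrd37 (chr8:45999851-46000100, minus strand): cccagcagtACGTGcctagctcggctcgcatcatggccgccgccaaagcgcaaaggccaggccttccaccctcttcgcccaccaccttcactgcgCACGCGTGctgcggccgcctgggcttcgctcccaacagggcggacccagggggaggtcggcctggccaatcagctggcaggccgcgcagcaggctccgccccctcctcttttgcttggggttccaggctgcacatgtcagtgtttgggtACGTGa
Vegfa (chr17:46032378-46032627, minus strand): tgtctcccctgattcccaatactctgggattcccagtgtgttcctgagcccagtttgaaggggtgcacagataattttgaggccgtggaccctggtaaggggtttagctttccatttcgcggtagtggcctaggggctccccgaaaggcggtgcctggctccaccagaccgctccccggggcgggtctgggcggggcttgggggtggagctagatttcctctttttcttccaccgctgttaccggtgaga
Slc2a1 (chr4:119108495-119108744, plus strand): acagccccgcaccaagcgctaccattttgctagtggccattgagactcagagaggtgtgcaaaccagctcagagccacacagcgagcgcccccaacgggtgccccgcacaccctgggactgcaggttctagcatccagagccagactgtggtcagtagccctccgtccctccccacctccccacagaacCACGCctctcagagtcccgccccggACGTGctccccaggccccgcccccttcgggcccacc
Pfkfb3 (chr2:11553930-11554179, minus strand): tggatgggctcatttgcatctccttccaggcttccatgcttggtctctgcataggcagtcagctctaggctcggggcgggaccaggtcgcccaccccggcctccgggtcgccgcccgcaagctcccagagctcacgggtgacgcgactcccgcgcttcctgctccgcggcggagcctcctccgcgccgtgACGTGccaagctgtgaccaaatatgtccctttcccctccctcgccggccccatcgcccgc
Bnip3 (chr7:138909507-138909756, minus strand): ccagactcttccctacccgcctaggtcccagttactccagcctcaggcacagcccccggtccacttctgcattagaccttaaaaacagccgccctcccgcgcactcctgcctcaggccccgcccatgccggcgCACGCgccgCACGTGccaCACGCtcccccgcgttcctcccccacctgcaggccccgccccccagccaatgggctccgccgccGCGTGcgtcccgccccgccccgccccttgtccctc
Egln3 (chr12:54203875-54204124, minus strand): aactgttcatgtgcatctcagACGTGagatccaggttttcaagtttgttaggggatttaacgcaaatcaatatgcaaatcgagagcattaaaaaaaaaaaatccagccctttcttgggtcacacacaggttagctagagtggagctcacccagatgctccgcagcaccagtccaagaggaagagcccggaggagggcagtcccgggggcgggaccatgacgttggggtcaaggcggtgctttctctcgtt

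Matches stand in 5 of these 6 stretches. Counted from the first base of a match to the start, they lie 241, 155 and 6 bases before it in Ankrd37 (the middle run holds overlapping matches), 61 and 36 in Slc2a1, 60 in Pfkfb3, 117, 108, 99 and 35 in Bnip3, and 229 in Egln3. The Bnip3 run at 108 is a CACGTG. No match stands in this window of Vegfa, which says only that these letters are not there; the table's other promoter of Vegfa holds 2 matches. Pfkfb3 also has 2 promoters in the table, both with a match, and the other 4 genes have 1 each. The table holds 44 promoters for 30 of the members, and 35 of them (79.5 percent) have a match in the 250 bases, as do 38.6 percent of all 32851 promoters in it. The members' promoters are also richer in G and C, with a median of 61.0 percent against 52.4 percent. Of 13 genes called higher after LPS 12 have a match in at least 1 promoter, and of the 17 other members 15 do. Of all 27025 genes 41.5 percent do. A match is a description of the letters and shows no binding.

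The glucose carriers parted in direction after LPS. Slc2a1 encodes GLUT1, the main carrier of basal glucose uptake, and its log2 ratios were 3.43, 3.24, 3.02 and 3.29 on the LPS arrays a to d against 0.28, 0.43, 0.27 and 0.29 on the control arrays. Slc2a6, a GLUT6 carrier found in myeloid cells, stood at 3.03, 2.91, 3.19 and 3.28 after LPS and at -0.17, -0.19, -0.11 and -0.09 in the control. In both genes all LPS arrays lay far above all control arrays, with log2 differences of 2.93 ± 0.08 (SE), 7.61-fold, adjusted p = 1.11e-13 for Slc2a1 and 3.24 ± 0.08 (SE), 9.47-fold, adjusted p = 1.17e-13 for Slc2a6. Slc2a3, which encodes the high-affinity carrier GLUT3, went the other way, at -1.34, -1.36, -1.12 and -1.16 after LPS against 0.09, 0.11, 0.14 and 0.25. The groups did not overlap, and the difference was -1.39 ± 0.06 (SE), 2.63-fold, adjusted p = 1.50e-11. The list of further glycolysis genes and carriers holds another fallen glucose carrier, Slc2a8, at -1.71 ± 0.05 (SE) (adjusted p = 2.66e-13).

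All 3 hexokinases, which trap glucose in the cell by phosphorylating it, rose after LPS, against 14.0 percent of all genes. Hk1, the widely expressed form, stood at 1.45, 1.24, 1.39 and 1.44 after LPS against 0.05, 0.09, 0.03 and 0.05 in the control, a log2 difference of 1.32 ± 0.06 (SE) (adjusted p = 1.87e-11). Hk2, the inducible form, stood at 1.64, 1.61, 1.06 and 1.30 against 0.14, 0.33, 0.09 and 0.15, with a difference of 1.23 ± 0.12 (SE) (adjusted p = 1.42e-07). Hk3, the form typical of myeloid cells, stood at 1.44, 1.06, 1.29 and 1.40 against -0.32, -0.34, -0.27 and -0.31, with a difference of 1.61 ± 0.07 (SE) (adjusted p = 4.15e-11). LPS and control arrays did not overlap in any of the 3 genes, which are among the 25 of 31 members without overlap.

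Pfkfb3 changed more after LPS than any other member. It encodes the enzyme with the strongest kinase activity among those that make fructose-2,6-bisphosphate, the activator of phosphofructokinase. Its log2 ratios were 4.40, 4.18, 4.72 and 5.00 after LPS against 0.09, 0.28, 0.17 and 0.16 in the control, a difference of 4.40 ± 0.13 (SE), 21.1-fold, adjusted p = 3.48e-13. Its paralogue Pfkfb4 fell, from 0.10, 0.12, 0.14 and 0.13 in the control to -0.99, -0.96, -1.50 and -1.50 after LPS, a difference of -1.36 ± 0.12 (SE), 2.57-fold, adjusted p = 4.97e-08. Another gene of this family, Pfkfb2 of the further list, fell as well, at -1.79 ± 0.15 (SE) (adjusted p = 3.54e-08).

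Among the 7 enzymes of upper glycolysis 1 was called after LPS, against 30.7 percent of all genes. Pfkl, the liver-type phosphofructokinase that catalyses the committed step, stood at 1.28, 1.26, 0.59 and 0.71 after LPS against -0.21, -0.17, -0.14 and -0.14, a difference of 1.13 ± 0.14 (SE), 2.19-fold, adjusted p = 3.24e-06. The other phosphofructokinases passed the adjusted p in opposite directions at less than 2-fold, Pfkp (platelet type) at 0.74 ± 0.13 (SE) and Pfkm (muscle type) at -0.83 ± 0.05 (SE). The same held for the aldolases, which split fructose-1,6-bisphosphate: Aldoa stood at 0.67 ± 0.08 (SE) and Aldoc at -0.55 ± 0.05 (SE). Tpi1, triosephosphate isomerase, stood at 0.62 ± 0.14 (SE) (adjusted p = 0.00104). Gpi1, glucose-6-phosphate isomerase, had a difference of 0.12 with a 95 percent interval of -0.14 to 0.38. Its LPS arrays a to d read 0.33, 0.29, -0.17 and -0.19, higher on the first scan day. For Gpi1 1 control array had no usable spot. Aldoa lacked replicate a in every treated group for the same reason.

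All 6 enzymes of lower glycolysis, the steps that yield ATP, had a higher level after LPS by adjusted p. Of all genes 78.8 percent passed it in either direction. Of the 6 enzymes 1 was called, against 30.7 percent of all genes. Their median log2 difference was 0.65, beside 0.62 in upper glycolysis. The called gene was Eno2, the enolase first described in neurons, at 1.22, 1.21, 0.75 and 0.71 after LPS against 0.04, 0.13, -0.22 and -0.11, a difference of 1.02 ± 0.14 (SE), 2.02-fold, adjusted p = 7.07e-06. Its difference lies at the 2-fold line, and it was under that line on the second scan day alone (0.90), without control replicate c or d, without LPS replicate a or b, and in 3 of the other processing alternatives. The remaining 5 passed the adjusted p at less than 2-fold: Pgam1 (phosphoglycerate mutase) at 0.85 ± 0.12 (SE), Pgk1 (phosphoglycerate kinase) at 0.70 ± 0.08 (SE), Eno1 (the main enolase) at 0.59 ± 0.11 (SE), Gapdh at 0.51 ± 0.11 (SE) and Pkm (pyruvate kinase) at 0.29 ± 0.07 (SE). Gapdh, often taken as a constant reference gene, had an adjusted p of 0.00123. These very bright probes had outlier spots on replicate a: Gapdh and Pgk1 had 3 arrays in each group, and Pgam1 and Eno1 lacked replicate a in 2 groups each.

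Of the genes that decide the fate of pyruvate, those of lactate production and export rose after LPS. Ldha, the lactate dehydrogenase subunit that favours lactate, stood at 1.68, 1.39, 0.93 and 0.998 after LPS against -0.0022, 0.08, -0.04 and 0.04, a difference of 1.23 ± 0.17 (SE), 2.34-fold, adjusted p = 9.51e-06. On the red channel alone the difference was 0.68, under 2-fold, and 2 of the 3 probes of the gene were called. Slc16a3, which encodes the lactate exporter MCT4, stood at 1.71, 1.54, 0.73 and 0.84 against -0.07, -0.04, -0.04 and -0.05, a difference of 1.26 ± 0.18 (SE), 2.39-fold, adjusted p = 1.28e-05. LPS and control arrays did not overlap in either gene, and replicates a and b were higher than c and d. Slc16a1, which encodes the carrier MCT1, had a difference of -0.03 (95 percent interval -0.34 to 0.29). Pdk1, a kinase that holds back pyruvate dehydrogenase, had a difference of 0.05 (95 percent interval -0.19 to 0.30). Its LPS arrays a to d read 0.25, 0.31, 0.07 and 0.06, higher on the first scan day. Ldhb of the further list, the subunit that favours pyruvate, fell by 2.44 on the log2 scale (adjusted p = 4.61e-09).

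Hif1a itself rose after LPS, from -0.04, 0.08, -0.17 and -0.07 in the control to 2.62, 2.73, 2.58 and 2.65, a difference of 2.70 ± 0.08 (SE), 6.48-fold, adjusted p = 2.39e-13. Ankrd37, a small ankyrin repeat gene known as a HIF-1 target, stood at 1.76, 1.83, 1.62 and 1.75 after LPS against -0.05, -0.05, 0.06 and 0.02, a difference of 1.74 ± 0.10 (SE), 3.35-fold, adjusted p = 4.27e-10. Bnip3, a mitophagy receptor, stood at 2.35, 2.17, 0.9999 and 1.42 against -0.04, -0.06, -0.11 and -0.10, a difference of 1.81 ± 0.22 (SE), 3.51-fold, adjusted p = 2.23e-06, and all 3 of its probes were called. All 4 LPS arrays lay above all control arrays in these 3 genes, which are also among the 25 of 31 members without overlap. Vegfa, the vascular growth factor, stood at 0.75, 0.82, 0.08 and 0.39 after LPS against 0.10, 0.20, 0.18 and 0.20; these ranges overlap, and the difference was 0.34 ± 0.13 (SE) (adjusted p = 0.0324), under 2-fold. Its 2 probes disagree here, since the dimmer probe gave 1.15 and was called. The hydroxylases Egln1 (PHD2) and Egln3 (PHD3) were not called, with log2 differences of -0.09 ± 0.35 (SE) and 0.99 ± 0.43 (SE). Egln3 stood just under the 2-fold line: its dimmer probe gave 1.12 (adjusted p = 0.00386) and was called. The gene was also called with median-centred arrays (1.05), with the mean of its probes (1.05), on the first scan day alone (2.08), and without LPS replicate c (1.45) or d (1.21). Their LPS arrays spread widely, from -1.65 to 0.53 for Egln1 and from -0.42 to 2.12 for Egln3, which the scan day comparison takes up.

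**Figure D2:**
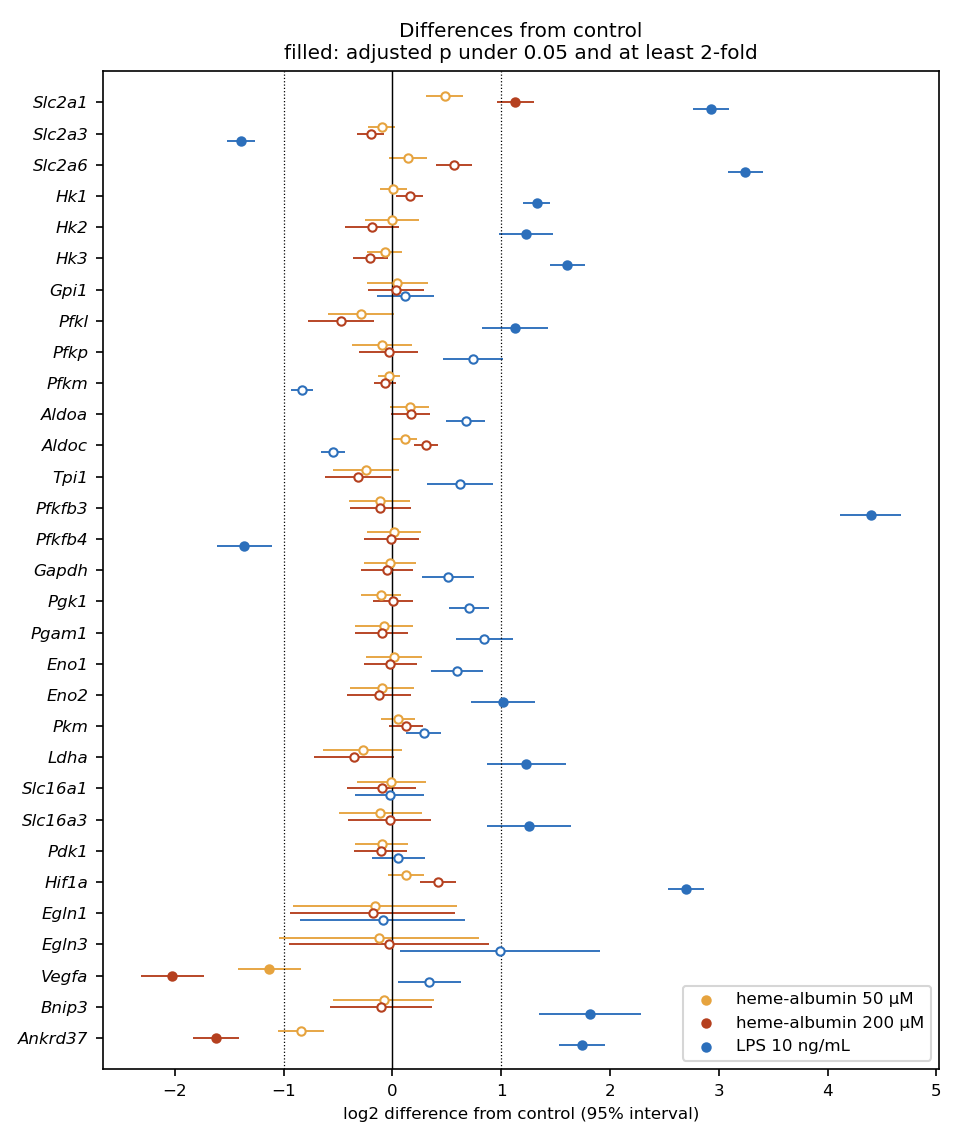
Log2 difference from control (horizontal axis, with 95 percent intervals) of each member after heme-albumin (50 µM and 200 µM) and LPS. Filled points passed an adjusted p of 0.05 and 2-fold (dotted lines), as 15 members did after LPS, 3 at 200 µM and 1 at 50 µM; most heme-albumin points sit near 0.

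Heme-albumin lowered Vegfa and Ankrd37, more at the higher dose. Vegfa stood at -0.72, -0.90, -1.17 and -1.07 at 50 µM and at -1.78, -1.88, -1.87 and -1.88 at 200 µM, against 0.10, 0.20, 0.18 and 0.20 in the control. The 3 groups did not overlap. It fell by 2.02 ± 0.13 (SE) at 200 µM (4.07-fold, adjusted p = 7.34e-08) and by 1.13 ± 0.13 (SE) at 50 µM (2.19-fold, adjusted p = 1.81e-04), both on the log2 scale. Its dimmer probe was called at both doses, at -2.82 and -1.55. The call at 50 µM was lost after another background correction (-0.99), in the first-day arrays (-0.96), and in the red channel alone (-1.28, adjusted p = 0.132).

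Ankrd37 stood at -1.81, -1.85, -1.54 and -1.30 at 200 µM, at -0.87, -0.90, -0.89 and -0.72 at 50 µM and at -0.05, -0.05, 0.06 and 0.02 in the control, again without overlap. It fell at 200 µM by 1.62 ± 0.10 (SE) on the log2 scale (3.08-fold, adjusted p = 3.19e-08). At 50 µM the difference of -0.84 ± 0.10 (SE) passed the adjusted p (1.56e-04) but not 2-fold. It is the member that the 2 stimuli moved in opposite directions by at least 2-fold, and the direct comparison of 200 µM with LPS gave -3.37 ± 0.10 (SE), 10.3-fold, adjusted p = 3.10e-13. Bnip3, which like Ankrd37 rose after LPS, had a difference of -0.10 from the control at 200 µM (95 percent interval -0.57 to 0.37). This interval rests on a spread shared by all groups. The SD of Bnip3 was 0.64 after LPS, 0.13 at 200 µM and 0.03 in the control.

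Slc2a1 was the 1 member called higher after heme-albumin. It stood at 1.31, 1.39, 1.53 and 1.57 at 200 µM and 0.79, 0.80, 0.79 and 0.81 at 50 µM against 0.28, 0.43, 0.27 and 0.29 in the control, and the 3 groups did not overlap. The difference was 1.13 ± 0.08 (SE), 2.19-fold, adjusted p = 1.07e-07 at 200 µM, and 0.48 ± 0.08 (SE) (adjusted p = 0.00243) at 50 µM, under 2-fold. At 200 µM it was 0.99 on the first scan day and 1.26 on the second, so the first day alone falls just short of 2-fold. This carrier stood above the 0 h control after both LPS and heme-albumin, and for this shared rise treatment and time in culture cannot be told apart. LPS gave the higher level: 200 µM stood 3.48-fold below LPS (log2 difference -1.80 ± 0.08 (SE), adjusted p = 2.29e-11).

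**Figure D3:**
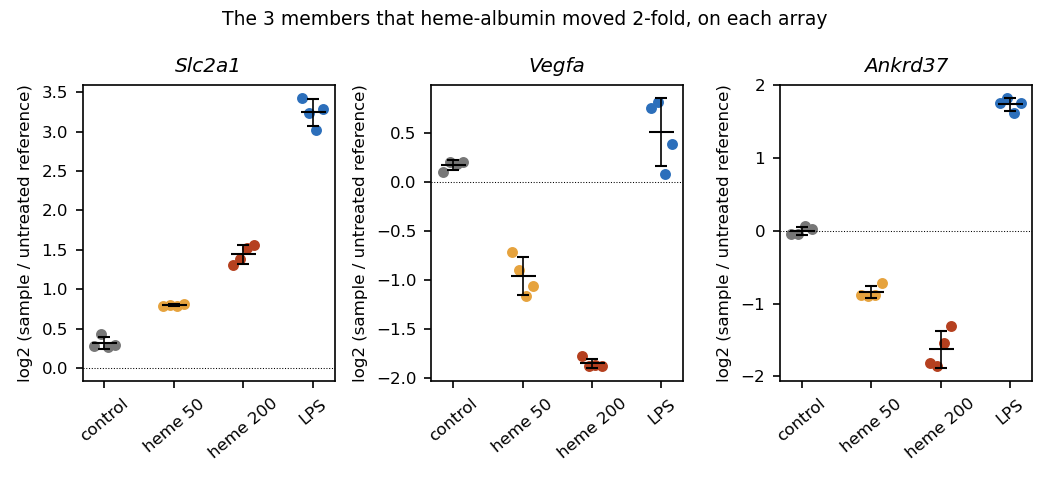
Log2 ratio of sample to untreated reference of Slc2a1, Vegfa and Ankrd37 on each array (points, 4 per group), with the mean and SD of each group (black). Slc2a1 steps up from control over 50 µM and 200 µM heme-albumin to LPS, while Vegfa and Ankrd37 step down with the heme-albumin dose and Ankrd37 rises with LPS.

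The rest of the set stayed under 2-fold after heme-albumin. By adjusted p alone 8 members passed at 200 µM, 4 in each direction, against 22.8 percent of all genes, and 3 passed at 50 µM, against 3.52 percent. Beside the 3 genes above, those at 200 µM were Slc2a6 at 0.57 ± 0.08 (SE), Hif1a at 0.42 ± 0.08 (SE), Aldoc at 0.31 ± 0.05 (SE), Slc2a3 at -0.20 ± 0.06 (SE) and Pfkl at -0.47 ± 0.14 (SE). Hif1a thus stood 1.34-fold above the control at 200 µM, with arrays at 0.44, 0.39, 0.42 and 0.22 that did not overlap the control's. For 28 of the 31 members the 95 percent interval of the difference at 200 µM lay inside 2-fold either way, and so it did for 28 at 50 µM, the others being Egln3, Vegfa and Ankrd37. The Egln3 interval also carries the spread of its LPS arrays (SD 1.23), beside an SD of 0.17 at 50 µM and 0.15 in the control. Intervals inside 2-fold were not counted over all genes, of which 3.03 percent were called at 200 µM and 0.368 percent at 50 µM. Pfkfb3, which LPS changed most, had an interval of -0.39 to 0.17 at 200 µM, and Hk2 one of -0.43 to 0.06. For Ldha the interval was -0.72 to 0.01, and its 200 µM arrays read -0.64, -0.59, 0.01 and -0.12, lower on the first scan day.

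Between the doses 0 members were called by limma, against 0.831 percent of all genes, and 0 by an analysis of variance without moderation, while 7 had an unadjusted p under 0.05. By adjusted p alone 6 members passed, against 7.61 percent of all genes, and these were the genes with graded values. Vegfa was lower at 200 µM than at 50 µM, at -0.89 ± 0.13 (SE) (adjusted p = 7.22e-04), and Ankrd37 stood at -0.78 ± 0.10 (SE) (adjusted p = 1.58e-04). Slc2a1 was higher at 200 µM, at 0.65 ± 0.08 (SE) (adjusted p = 1.05e-04), as were Slc2a6 at 0.43 ± 0.08 (SE), Hif1a at 0.29 ± 0.08 (SE) and Aldoc at 0.20 ± 0.05 (SE). The Vegfa difference passed 2-fold on the first scan day alone (-1.02) and with the mean of its probes (-1.08).

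Set directly against LPS, which shares the 8 h, 17 members were called at each heme-albumin dose, 2 higher and 15 lower. Of all genes 30.3 percent were called at 200 µM and 30.6 percent at 50 µM, and 13.6 and 13.9 percent were lower. The 2 higher ones were Slc2a3 and Pfkfb4, at 1.19 ± 0.06 (SE) and 1.35 ± 0.12 (SE) for 200 µM, the 2 members that LPS had lowered. Pfkfb3 stood 22.7-fold below LPS at 200 µM (-4.51 ± 0.13 (SE)) and Hif1a 4.84-fold below it (-2.28 ± 0.08 (SE)). Vegfa was lower than after LPS by 5.14-fold at 200 µM (-2.36 ± 0.13 (SE), adjusted p = 5.04e-10) and by 2.77-fold at 50 µM. Egln3 was called lower too, at -1.02 ± 0.43 (SE) (adjusted p = 0.0411), but its groups overlap. With the replicate block its adjusted p was 0.0623, and on the second scan day alone its difference turned to 0.35. The call was also lost without LPS replicate a (-0.64) or b (-0.71) and without 200 µM replicate a (-0.89) or b (-0.93). At 50 µM the Egln3 call was lost without LPS replicate a (-0.73) or b (-0.80), and without heme-albumin 50 µM replicate b (adjusted p = 0.0641).

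The effect of LPS on many of these genes differed between the scan days, by most in Egln3, Egln1 and Bnip3. An added term for that difference, chosen after the data were seen, had an adjusted p under 0.05 for 18 of 31 members, against 33.6 percent of all genes. For 16 of the 18 the second day was lower. The 18 comprise 14 of 25 glycolysis members and 4 of 6 hypoxia members, and the classes were not tested against each other. By limma 0 members differed between days in the effect of heme-albumin at an adjusted p under 0.05. Of all genes 1 of 12759 did at 200 µM and 0 of 12757 at 50 µM. An unadjusted p under 0.05 was found for 7 members at 200 µM and 3 at 50 µM, beside 1508 and 728 of all genes. Egln3 read 2.12, 1.91, -0.42 and 0.30 on LPS arrays a to d, so that both first-day arrays were high and both second-day arrays near the control's -0.21, 0.08, 0.14 and -0.05. Its LPS difference was 2.08 on the first day and -0.10 on the second, a gap of -2.18 ± 0.29 (SE) (adjusted p = 3.64e-04). For Egln1 the LPS arrays read 0.47, 0.53, -1.65 and -0.63, and the difference passed from 0.73 to -0.90 with the gap at -1.63 ± 0.39 (SE) (adjusted p = 0.00926). Bnip3 had a gap of -1.005 ± 0.17 (SE) (adjusted p = 0.00124) and was called on each day alone, at 2.32 and 1.31.

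Among the glycolysis members Slc16a3 differed by -0.85 ± 0.09 (SE) (adjusted p = 1.08e-04), Pfkl by -0.68 ± 0.11 (SE) (adjusted p = 8.73e-04), Tpi1 by -0.63 ± 0.11 (SE) and Ldha by -0.53 ± 0.12 (SE). Gpi1 and Pdk1, whose averages over both days were small, differed by -0.46 ± 0.10 (SE) and -0.30 ± 0.08 (SE). Their adjusted p for this term in limma was 0.0102 and 0.0146. The fourth hypoxia member to pass was Vegfa, at -0.60 ± 0.14 (SE). On the second day alone Slc16a3, Pfkl, Ldha and Eno2 were under 2-fold, at 0.83, 0.79, 0.97 and 0.90. Pfkfb3 and Pfkp were the 2 that passed with a higher second day, by 0.59 ± 0.17 (SE) and 0.54 ± 0.10 (SE). Of the 15 members called after LPS, 9 did not pass the test of a difference between days: Slc2a1, Slc2a3, Slc2a6, Hk1, Hk2, Hk3, Eno2, Hif1a and Ankrd37. The 4 with the largest differences, on the first and the second day, were Slc2a1 (2.98 and 2.87), Slc2a6 (3.15 and 3.33), Hif1a (2.66 and 2.74), and Ankrd37 (1.84 and 1.64). The scan day coincides with the replicate pairs and with the style of their tags, and these cannot be told apart.

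**Figure D4:**
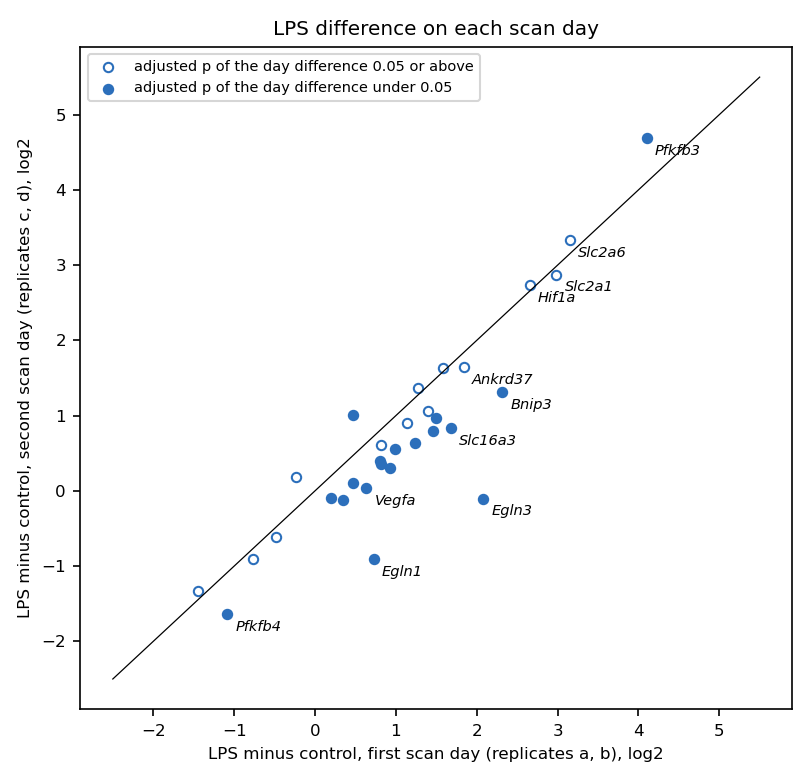
LPS minus control log2 difference of each member on the first scan day (horizontal axis, replicates a and b) against the second (vertical axis, replicates c and d), with the line of equal values. Filled points are the 18 members whose difference between days had an adjusted p under 0.05; Egln3, Egln1 and Bnip3 lie farthest below the line.

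Other genes of these pathways, from lists drawn up beside the members, moved unevenly after LPS. Of 40 kept genes on a list of further hypoxia-induced genes, 12 rose and 3 fell, against 14.0 and 16.7 percent of all genes, with a median log2 difference of 0.61. Nos2, the inducible nitric oxide synthase, stood at 5.09 ± 0.17 (SE) (adjusted p = 9.49e-13) and Ak4, a mitochondrial adenylate kinase, at 4.00 ± 0.35 (SE) (adjusted p = 6.88e-08). Edn1 (endothelin 1) and Lox (lysyl oxidase) were well above background on all 4 LPS arrays and on 0 control arrays, so no fold is given for them. Neither would have been kept on its control arrays, so the counts and median of this list depend in part on the filter. The shares over all genes rest on the same filter. On the same list 18 genes had a lower and 4 a higher LPS difference on the second scan day by adjusted p alone, against 33.6 percent of all genes in either direction. The largest shifts went both ways, Ndrg1 at 1.44, Lox at -1.33 (with its control arrays at background), Adm (adrenomedullin) at -1.31 and Gys1 (glycogen synthase) at -1.29. Of 13 HIF-1 pathway regulators, such as its partner Arnt and the ubiquitin ligase subunit Vhl, 0 were called after LPS by limma or by the analysis of variance, against 30.7 percent of all genes, and 1 was with the mean of the probes of a gene. By adjusted p alone 10 passed (8 higher and 2 lower), near the 78.8 percent of all genes, and as many had an unadjusted p under 0.05.

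The further glycolysis genes and carriers are mostly isoforms outside the members: 1 of 15 kept genes rose and 6 fell, against 14.0 and 16.7 percent of all genes, with a median of -0.65. With normexp background correction or without background subtraction 0 rose and 4 fell. Slc37a2, a sugar-phosphate carrier of macrophages, stood at -2.84 ± 0.09 (SE) (adjusted p = 2.36e-12). In the tricarboxylic acid cycle, which burns acetyl groups in mitochondria, 4 of 20 genes fell and 16 were not called, a share near the 16.7 percent of all genes, and both background alternatives left 2. The lowest were Idh1 at -1.81 ± 0.14 (SE) and Mdh1 at -1.35 ± 0.08 (SE) (adjusted p = 1.79e-08 and 3.48e-10), both of them cytosolic forms. Around pyruvate dehydrogenase Pdk3 rose (1.58 ± 0.08 (SE)) and Pdk2 fell (-1.35 ± 0.09 (SE)), 2 kinases that restrain it. They were the 2 called of 11 kept genes, against 30.7 percent of all genes. Under either background alternative 1 gene, a higher one, was called. Of 14 genes of glycogen metabolism 1 rose and 4 fell, against 14.0 and 16.7 percent of all genes. Among the fallen were the subunits Phka1 and Phka2 of phosphorylase kinase, at -1.73 ± 0.04 (SE) and -1.62 ± 0.08 (SE). Of 6 kept genes that brake glycolysis or make glucose, 0 rose and 2 fell, against 14.0 and 16.7 percent of all genes. The fallen were Txnip at -1.34 ± 0.06 (SE) and Pck2 at -1.27 ± 0.04 (SE). Of the 6 differences 3 were positive and 3 negative. Under either background alternative, and with the mean of the probes, 1 of the 6 was called. Txnip restrains glucose uptake, and Pck2 is the mitochondrial phosphoenolpyruvate carboxykinase.

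At 200 µM heme-albumin 6 of the 125 list genes were called, against 3.03 percent of all genes. In the pentose phosphate pathway, which draws NADPH from glucose-6-phosphate, G6pdx and Pgd, its NADPH-yielding enzymes, rose by 1.11 ± 0.09 (SE) and 1.08 ± 0.09 (SE) (adjusted p = 6.20e-07 and 2.79e-06), 2 of 9 kept genes against 3.03 percent of all genes, with a list median of 0.50. On the red channel alone 1 of the 9 was called. After LPS 1 of the 9 rose and 2 fell, against 14.0 and 16.7 percent of all genes, with Shpk the lowest at -1.70 ± 0.09 (SE). On the first scan day alone, without LPS replicate c, or without d, 1 of the 9 was called after LPS in place of 3. Pcx, the pyruvate carboxylase that feeds oxaloacetate, rose after 200 µM heme-albumin by 2.19 ± 0.19 (SE) (4.57-fold, adjusted p = 8.69e-07) and also differed between the doses, at 1.42 ± 0.19 (SE). Gbe1, the glycogen branching enzyme, rose by 1.88 ± 0.07 (SE) (adjusted p = 4.72e-10). Among the further hypoxia-induced genes Cxcr4 and Ak4 fell at 200 µM, at -1.74 ± 0.18 (SE) and -1.22 ± 0.35 (SE), beside the rise of Gbe1, which is on that list too, and the list median was -0.02. Cxcr4, a chemokine receptor, also fell after LPS, at -3.51 ± 0.18 (SE), while Ak4 had risen. At 50 µM 0 of the 125 different genes kept on the 8 lists were called by limma or by the analysis of variance, against 0.368 percent of all genes, while 27 had an unadjusted p under 0.05 and 9 an adjusted one, the latter against 3.52 percent of all genes. In fits of the compared arrays only, of the first-day arrays only, and with a scan day block, 1 further hypoxia-induced gene was called lower at 50 µM.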

How the data were processed

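The 31 members, the pathway lists and the marker lists were chosen with earlier results of these data known. Each array carried the sample in red (Cy5) and untreated reference RNA in green (Cy3), and the control arrays carried untreated RNA in both, per the labels. The deposited log10 ratios come, per the file headers, from Agilent Feature Extraction 10.7.3.1 with background subtraction and linear and lowess dye correction. Flags and alternatives rest on the deposited intensity values of the spots, whose columns the headers name. Per the labels, the authors ran an analysis of variance on these log10 ratios with a 2-fold filter and no further normalisation. The deposited value table equals the scanner ratios (largest difference 0).

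Log10 ratios were converted to log2. Spots flagged as outliers (188 to 690 per array) were left out, and spots of a probe averaged. Of 39429 probes, 27234 were named through their accession with RefSeq's gene table of GRCm38.p6, another build than the array design's; 12195 are unnamed here and 0 had several symbols. A probe was kept if its red signal was well above background throughout 1 group or more (4 arrays), and the brightest kept probe represented its gene (12759 genes). Of the members 12 have several probes; no member had probes called in opposite directions. All 16 arrays entered limma 3.58.1 (R 4.3.3; lmFit with group means and no block, then eBayes), with Benjamini-Hochberg adjustment over all genes in each of 6 comparisons. The 4 groups shared 1 estimate of each gene's spread. Where the LPS arrays spread most, SEs and intervals are narrow for LPS and wide for heme-albumin. A call needed an adjusted p under 0.05 and 2-fold. The code was tested on simulated data. The number of arrays limits the precision, and the spread of the control arrays, with untreated RNA in both colours, can be mainly technical.

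Every member is accounted for. Members called in a comparison are given on each array, the others by difference or interval, and at most 4 genes of each list are named per comparison, called ones first, by size; Slc2a8 and the members' second probes were chosen after their values were seen. Alternatives were normexp background correction and no background subtraction (both on median foreground signals, as the files used here have no mean ones), median-centred arrays, the red channel alone, other filters and probe rules, outlier spots kept, the replicate block, scan day as a block or alone, the compared arrays alone, an unmoderated analysis of variance, adjusted p alone, and each array left out. Arrays of the same letter share a slide and a tag in their titles; their deviations correlated between 0.100 and 0.502 in 5 comparisons but between 0.0962 and 0.114 for LPS against control. Figures were drawn with matplotlib 3.10.9. Marker lists of 10 cell types were looked up; that of macrophages and that of embryonic stem cells are reported with the study's samples, and the other 8 had 18 of 68 genes on the array above background on all arrays.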

Additional observations from a re-analysis of the deposited data

Results flagged for a closer look

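The LPS difference of 3 members changed by more than 2-fold between the scan days by an added interaction term in limma: Egln3 by -2.18, Egln1 by -1.63 and Bnip3 by -1.005 on the log2 scale, second minus first day. Of all 12758 genes tested with this term, 574 were called. Within groups of 4 arrays, 1 array stood far from the other 3 in 5 of 106 groups, and chance alone marks about 1 in 20 groups. These were Slc2a1 on control replicate b (0.43, nearest 0.29), Pfkm on control replicate d (-0.050, nearest -0.006), Aldoc at 50 µM heme-albumin on replicate a (0.18, nearest 0.04), Vegfa at 200 µM on replicate a (-1.78, nearest -1.87) and Ankrd37 at 50 µM on replicate d (-0.72, nearest -0.87). Each gap is small beside the called differences of Slc2a1, Vegfa and Ankrd37.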

How the results depend on the processing

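Of 53 called differences of single members, tried under 22 alternatives each, 1120 of 1166 values kept the direction and the call, 45 lost the call and 1 reversed: Egln3 at 200 µM heme-albumin against LPS stood at 0.35 on the second scan day alone. The lost calls belong to Egln3, Eno2, Ldha, Pfkl, Slc16a3, Slc2a1, Slc2a3 and Vegfa. Ldha at 200 µM and 50 µM against LPS (-1.58 and -1.50) stood at -0.89 and -0.90 on the red channel alone. The count after LPS (15) ran from 12 on the second scan day alone, 11 of them shared with the 15, to 17 on the first, and 27 members passed by adjusted p alone. By adjusted p alone the counts were 8 at 200 µM (3 called), 3 at 50 µM (1 called), 6 between the doses (0 called), 26 for 200 µM against LPS and 27 for 50 µM against LPS (17 called in each). At 50 µM the count was 0 with normexp background correction, on the red channel alone and on the first scan day alone. Between the doses it was 1 (Vegfa) with the mean of the probes of a gene and on the first scan day alone. With each array left out in turn the counts were 14 to 16 after LPS, 3 at 200 µM, 1 at 50 µM, 0 between the doses, 16 to 19 for 200 µM and 16 to 18 for 50 µM against LPS. With the replicate block the counts were 15, 3, 1, 0, 16 and 17 in the same order, and the block ended no call but that of Egln3 at 200 µM against LPS. The 32 list counts had 736 values under the alternatives, and 41 of these values moved by over 1.5 times. Of the 41, 18 arose under alternatives other than adjusted p alone. With normexp, the further glycolysis genes called after LPS went from 7 to 4 and the tricarboxylic acid cycle genes from 4 to 2. Over all genes normexp called 151 in place of 386 at 200 µM and 19 in place of 47 at 50 µM, where the red channel alone called 30 higher and 3 lower in place of 37 and 10. The red channel alone put the median of all genes at -0.13 after LPS. The cause of these shifts was not tested.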
